A study of Mus musculus with 6 samples.

Results

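Genes of the p53 pathway were examined in Noto-GFP-positive cells, sorted to mark the forming notochord, of mouse embryos of embryonic day 8.5. Some presomitic, somite and gut endoderm markers were also higher in these cells, as given below. The 10 genes were Trp53, which encodes p53 itself, and the p53 targets Cdkn1a, Trp53inp1, Ccng1, Mdm2, Bax, Btg2, Perp, Sesn2 and Phlda3. Cdkn1a and Trp53inp1 were chosen from their measured rise in GFP-positive cells, so their values are given as a description with no test. The other 8 were added as well-known pathway genes, to ask whether that rise extends to them. Of the 10 genes, 8 had at least 1 probe set with a single gene symbol, out of 18193 genes so named on the array. Trp53 and Bax had none and were not analysed here.

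Embryos were heterozygous for the Noto-GFP reporter, on a mixed 129S3;ICR background and of both sexes, with a median somite number of 6. Tissue behind the boundary between somites SI and SII was dissected, and cells of 23, 39 or 52 embryos a pool were separated with 1% trypsin before the sort. Both groups carried the same allele and differed only in the GFP gate. Each of 3 pools gave 1 GFP-positive array (about 2600, 4300 and 6600 cells) and 1 GFP-negative array, so each group held 3 arrays.

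The p53 protein is a transcription factor that is normally kept low, because its target Mdm2 marks it for breakdown. When cells sense DNA damage or other stress, p53 accumulates and switches on genes for cell cycle arrest, repair, survival and cell death. In the early mouse embryo this balance is strict, since loss of Mdm2 is lethal through unrestrained p53.

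Factor p53 binds DNA as a pair of short palindromic half-sites, so the RefSeq sequence upstream of the genes was searched for the p53 half-site consensus. The search covered the 250 bases before each annotated start in GRCm38.p6; the consensus reads the same on both strands. An exact match lay in 5 of 9 windows of these genes, from 8 genes in the table, against 7.13% of all 32851 windows. Known targets were chosen, so this count is a description. The measured genes with a match were Cdkn1a, Ccng1 and Mdm2. Their windows follow 5′ to 3′ on the gene's strand, with exact half-site matches in capitals, because these are the genes whose levels are compared below. The windows are chr17:29090729-29090978 (plus strand) for Cdkn1a, chr11:40755287-40755536 (minus strand) for Ccng1 and chr10:117710759-117711008 (minus strand) for Mdm2.
Cdkn1a: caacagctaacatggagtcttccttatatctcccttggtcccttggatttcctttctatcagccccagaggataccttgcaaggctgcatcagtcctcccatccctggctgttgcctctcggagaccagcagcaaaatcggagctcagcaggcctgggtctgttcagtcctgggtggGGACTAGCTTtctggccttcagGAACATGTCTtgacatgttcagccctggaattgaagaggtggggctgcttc
Ccng1: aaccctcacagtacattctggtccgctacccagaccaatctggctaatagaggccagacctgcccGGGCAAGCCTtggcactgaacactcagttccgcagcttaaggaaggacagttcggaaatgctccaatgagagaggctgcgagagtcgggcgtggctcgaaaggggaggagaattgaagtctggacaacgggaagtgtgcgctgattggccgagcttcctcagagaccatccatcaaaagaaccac
Mdm2: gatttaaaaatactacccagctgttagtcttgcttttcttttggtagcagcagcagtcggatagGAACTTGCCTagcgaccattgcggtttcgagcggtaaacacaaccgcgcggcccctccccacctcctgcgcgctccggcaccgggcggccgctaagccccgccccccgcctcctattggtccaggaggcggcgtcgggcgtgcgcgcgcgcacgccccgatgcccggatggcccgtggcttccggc
In the Cdkn1a window the half-sites GGACTAGCTT and GAACATGTCT lay 12 bases apart, within the spacing of up to 13 bases that was searched for pairs. Such an exact pair occurred in 0.0639% of all windows. Directly after GAACATGTCT stand the letters tgacatgttc, which miss the consensus only at their first letter and so are unmarked. The exact search therefore does not show which letters p53 binds, and binding was not tested. The Cdkn1a window shown is that of the upstream annotated start. The annotated Cdkn1a starts lie 2790 bases apart, and the window of the downstream start held no exact match. The half-site of Ccng1 (GGGCAAGCCT) began 185 bases and that of Mdm2 (GAACTTGCCT) 186 bases before the start. In Ccng1 the unmarked letters agacctgccc stand directly before GGGCAAGCCT and miss the consensus only at an inner letter. Windows of Btg2, Sesn2 and Phlda3 held no exact match, which says only that no such letters are in those 250 bases. Trp53inp1 and Perp were not searched. Among windows of the wider p53 targets described below, 11 of 77 (14.3%) held a half-site and 0 a pair.

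Cdkn1a and Trp53inp1 were the members with the largest differences. Cdkn1a encodes p21, an inhibitor of cyclin-dependent kinases that halts the cell cycle. Its deposited intensity was 354, 349 and 460 on the GFP-positive arrays of pools 1, 2 and 3 and 163, 90.3 and 95.7 on the GFP-negative arrays. All GFP-positive arrays lay above all GFP-negative arrays, and the GFP-negative array of pool 1 was the brightest of its group. Within pools the difference on the log2(intensity + 32) scale was 0.99, 1.64 and 1.95, with a fitted log2 fold change of 1.53 ± 0.25 (SE, n = 3 per group). The linear ratio of group means was 3.34. Here, as for all these bulk values, a different share of cells with the transcript and a different amount of RNA per cell cannot be told apart.

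Trp53inp1 encodes a nuclear stress protein that promotes p53 activity, cell death and autophagy. Its intensity was 2582, 1117 and 1275 on GFP-positive arrays and 333, 163 and 171 on GFP-negative arrays. The groups did not overlap, and both arrays of pool 1 were the brightest of their group. Within pools the log2 difference was 2.84, 2.56 and 2.69, with a fitted log2 fold change of 2.70 ± 0.37 (SE), and the linear ratio of group means was 7.46. Pool 1 also stood apart in RNA quality. Its Gapdh control ratio of 3′ over 5′ signal was 14.0 and 15.4, against 1.60 to 2.22 on the other 4 arrays. The part of RNA quality in the brightness of pool 1 was not tested, while the within-pool differences of Trp53inp1 without pool 1 remained at 2.56 and 2.69.

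**Figure D1:**
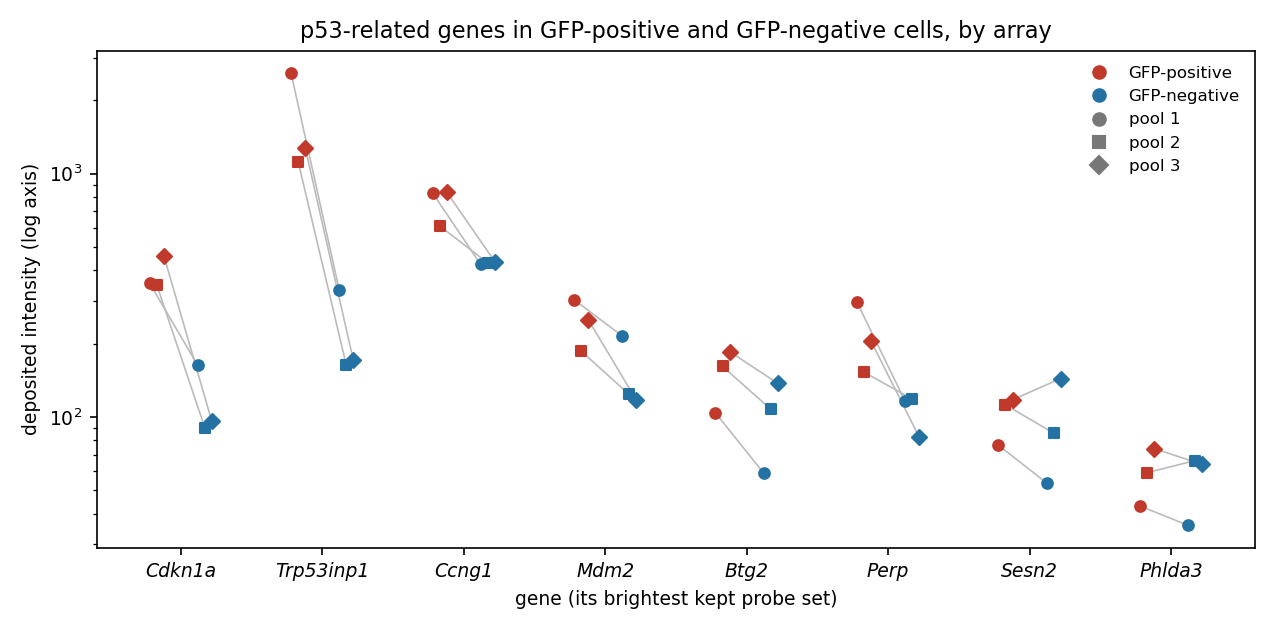
Deposited intensity (log axis) of the brightest kept probe set of each of the 8 measured genes, with 1 point per array, red for GFP-positive and blue for GFP-negative, and grey lines joining the arrays of a pool. Red and blue points separate fully for Cdkn1a, Trp53inp1, Ccng1 and Perp and overlap for Mdm2, Btg2, Sesn2 and Phlda3.

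Second probe sets of both genes differed in the same direction at lower brightness. For Cdkn1a the second probe set had 29.7, 62.7 and 79.0 on GFP-positive arrays and 3.31, 35.8 and 37.3 on GFP-negative arrays, with GFP-positive higher in all 3 pools although the groups overlapped. For Trp53inp1 it had 47.2, 43.7 and 35.3 against 17.7, 8.78 and 7.70, with no overlap. Array medians lay between 19.8 and 28.0, and the GFP-negative values of this Trp53inp1 probe set were below them.

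Across the other 6 measured genes, 0 rose and 0 fell in GFP-positive cells, with limma and a threshold of 0.05 on p adjusted over all genes, beside 2.95% higher and 1.71% lower of all 12628 genes tested. Before adjustment, 2 had a higher level (Ccng1 and Perp) and 0 a lower one at p under 0.05, beside 12.7% and 10% of all genes. The arrays of a pool came from the same embryos, and with the pool as a block Ccng1 and Perp passed, 2 of 6, where 7.76% of all genes were higher. Without both arrays of pool 1, 3 passed (Ccng1, Mdm2 and Perp), where the share of all genes that were higher was 20.1%, with 18.2% lower. Without the GFP-negative array of pool 1 alone, 2 passed (Ccng1 and Mdm2), where 11.3% of all genes were higher and 10.9% lower. All 6 log2 fold changes were above 0, with a median of 0.54, where 51.1% of all genes were above 0 and their median was 0.01. All 6 were at or above the filter on all 6 arrays, so none was kept through its high group alone.

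Ccng1 and Mdm2 act in the feedback on p53. Ccng1 encodes cyclin G1, which recruits a phosphatase to Mdm2. Its intensity was 833, 609.5 and 839 on GFP-positive arrays and 423, 429 and 435 on GFP-negative arrays. GFP-negative arrays were nearly level and all GFP-positive arrays lay above them, as in 15.6% of all genes. Its log2 fold change was 0.77 ± 0.20 (SE), with an adjusted p of 0.0730 in limma and 0.0288 with the pool as a block, and GFP-positive was higher in 3 of 3 pools (0.93, 0.48 and 0.90). A pair of further probe sets had log2 fold changes of 0.21 ± 0.19 and 0.13 ± 0.27 (adjusted p over probe sets in limma 0.572 and 0.835), so the size of the difference depended on the probe set.

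Mdm2 encodes the ubiquitin ligase that breaks down p53. Its intensity was 303, 186 and 251 on GFP-positive arrays and 215, 124 and 117 on GFP-negative arrays. GFP-negative array 1 was brighter than GFP-positive array 2, so the groups overlapped, yet GFP-positive was higher in 3 of 3 pools, as in 28.4% of all genes (0.44, 0.49 and 0.92). Its log2 fold change of 0.62 ± 0.27 (SE) had an adjusted p of 0.221 in limma, and 0.0557 with the pool as a block. Other Mdm2 probe sets had -0.15 ± 0.21 and -0.01 ± 0.16, not above 0 and both smaller than their SE. The latter read only 13.5 to 28.8 over the 6 arrays, where array medians lay between 19.8 and 28.0.

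Perp and Btg2 stand for the arms of cell death and growth arrest. Perp encodes a membrane protein of p53-dependent death that is also part of desmosomes in epithelia. Its intensity was 296, 153 and 204 on GFP-positive and 116, 118 and 82.6 on GFP-negative arrays. The groups did not overlap. Within pools the difference was 1.15, 0.30 and 1.05. The log2 fold change was 0.83 ± 0.26 (SE), with an adjusted p of 0.107 in limma and 0.0394 with the pool as a block. Perp had 1 probe set.

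Btg2, an antiproliferative gene that is also an immediate early gene, had 104, 161 and 185 on GFP-positive and 58.8, 108 and 137 on GFP-negative arrays. Both arrays of pool 1 were the dimmest of their group, so the groups overlapped while GFP-positive was higher in 3 of 3 pools. The log2 fold change was 0.47 ± 0.29 (SE), with an adjusted p of 0.363 in limma and 0.0893 with the pool as a block. The second Btg2 probe set had 0.14 ± 0.32, and in pool 1 it was lower in GFP-positive cells (-0.23).

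Sesn2 and Phlda3 showed the smallest differences. Sesn2 encodes sestrin 2, which restrains mTORC1 signalling and is also induced by the stress factor ATF4. Its intensity was 76.4, 112 and 118 on GFP-positive and 53.5, 85.8 and 144 on GFP-negative arrays. The highest value of all was GFP-negative array 3, and the sign differed between pools (0.34, 0.29 and -0.23). The log2 fold change was 0.13 ± 0.28 (SE; adjusted p in limma 0.812). Its second probe set, at 2.82 to 36.7 over the 6 arrays, did not pass the filter on low values.

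Phlda3 encodes a small protein that blocks the survival kinase Akt at membranes. It had 43.0, 58.9 and 74.1 on GFP-positive and 35.8, 66.1 and 63.7 on GFP-negative arrays. The groups overlapped and pool 2 had the lower value in GFP-positive cells. Its log2 fold change was 0.06 ± 0.22 (SE; adjusted p in limma 0.893). Without the GFP-negative array of pool 1 the signs of both genes turned, to -0.12 for Sesn2 and -0.11 for Phlda3.

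**Figure D2:**
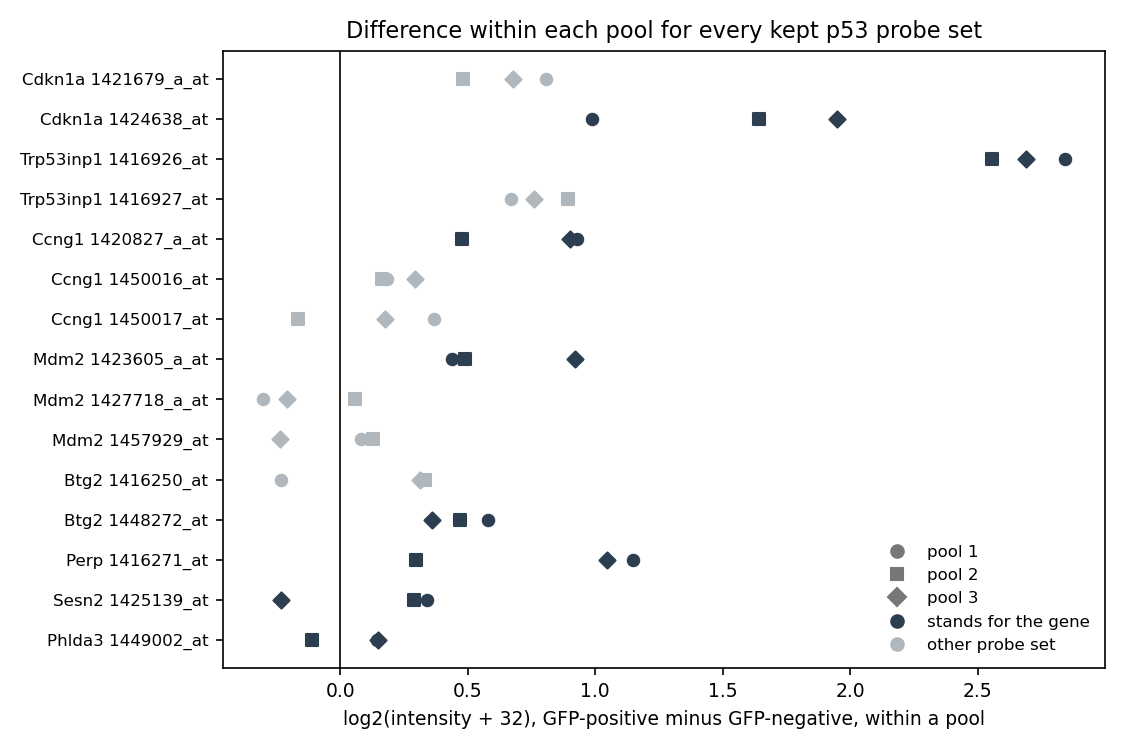
Difference in log2(intensity + 32) between GFP-positive and GFP-negative arrays within each pool, for the 15 kept probe sets of the 8 genes; marker shape gives the pool, dark points are the probe set that stands for the gene. All 3 points of Cdkn1a, Trp53inp1, Ccng1, Mdm2, Btg2 and Perp lie right of 0 for the dark probe set, while those of Sesn2 and Phlda3 fall on both sides.

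The order of the within-gene differences was Trp53inp1, Cdkn1a, Perp, Ccng1, Mdm2, Btg2, Sesn2 and Phlda3. From Perp to Btg2 the values, 0.83 to 0.47, lie within 2 standard errors of each other. Genes with patterns closest to Cdkn1a over the 6 arrays, by the root mean square difference of mean-centred log2 values, were the homeobox gene Hoxb1 (0.11), Abhd4 (0.17) and the guidance gene Ntn1 (0.19). Closest to Trp53inp1 were Car3 (0.08), a carbonic anhydrase, the sialyltransferase St8sia6 (0.17) and the muscle gene Myom2 (0.21). Abhd4, a lipid hydrolase, is itself among the wider p53 targets below.

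A wider list held 70 further well-known p53 targets, of which 64 were named on the array and 56 were kept. Of the 56, 4 were higher (7.14%), 2 were lower and 50 did not pass in limma over all genes, beside 2.95% and 1.71% of all genes. With the pool as a block 9 were higher and 2 lower, beside 7.76% and 5.99% of all genes. The median log2 fold change of the list was 0.21, against 0.01 over all genes, and 38 of 56 were above 0. Of the 56, 1 was kept through GFP-positive arrays alone (Tnfrsf10b, 17.9, 12.4 and 15.1 against 2.40, 2.14 and 1.85). The filter favoured a positive sign for it, so the 38 are a description. Tnfrsf10b was not among the 4 that were higher or, with the block, the 9. These counts moved with single arrays: 15 were higher and 7 lower without both arrays of pool 1, where 20.1% and 18.2% of all genes were, and 0 and 0 without pool 2, where 0.0343% and 0% of all genes were (4 and 0 genes). Among single arrays, leaving out GFP-negative array 1 gave 12 (Tnfrsf10b among them) and 4, beside 11.3% and 10.9% of all genes. Leaving out GFP-positive array 2 or 3 or GFP-negative array 2 gave 1 and 0. In that order 0.590%, 0.551% and 0.596% of all genes were higher and 0.164%, 0.131% and 0.139% lower. Leaving out GFP-negative array 3 gave 2 and 0, beside 1.09% and 0.320% of all genes. Leaving out GFP-positive array 1 gave 2 and 2, beside 2.26% and 1.56%. Without pool 3 the counts were 2 and 0, beside 0.327% and 0.0602% of all genes.

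Ddit4, which inhibits mTORC1 under stress and low oxygen, rose most. Its intensity was 2067, 2311 and 1618 on GFP-positive and 438, 408 and 481 on GFP-negative arrays, groups far apart. It rose by 2.09 ± 0.21 on the log2 scale (SE, adjusted p in limma 0.00213), and it passed with each single array left out but not without both arrays of pool 2 (adjusted p = 0.173). Ddit4 is also a target of hypoxia and glucocorticoid signals. Abhd4 rose by 1.28 ± 0.23, with GFP-positive arrays between 899 and 932 and GFP-negative arrays at 495, 309 and 302. Its other probe set had 0.56 ± 0.20 and did not pass. Abhd4 itself did not pass in 6 of 21 alternatives, each with an array or pool left out.

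The phosphatase Ptpn14, a brake on YAP signalling, rose by 0.97 ± 0.19 (667, 581 and 602 against 281, 327 and 291). Other probe sets of Ptpn14 had 0.14 ± 0.19 and 0.30 ± 0.20 and did not pass. The kinase Plk2 rose by 0.83 ± 0.19 (312, 364 and 301 against 162, 175 and 169; adjusted p in limma 0.0473). For both, all 3 GFP-positive arrays lay above all GFP-negative arrays. Plk2 did not pass in 9 of 21 alternatives, among them no filter (adjusted p in limma 0.0652). Ptpn14 did not pass in 8 of 21, among them the mean over probe sets (adjusted p in limma 0.107).

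Both genes that fell are known for cell death and survival. Pmaip1 encodes Noxa, a death-promoting BH3-only protein. It had 40.6, 71.2 and 109 on GFP-positive and 199.6, 293 and 290 on GFP-negative arrays, a log2 difference of -1.51 ± 0.28 (SE, adjusted p in limma 0.0251). Kitl, the ligand of the receptor Kit, had 289, 241 and 285 against 615, 836 and 660, with -1.27 ± 0.21 (adjusted p in limma 0.0164). Its other probe sets had -0.65 ± 0.18, -0.62 ± 0.21 and -0.06 ± 0.14 and did not pass. Pmaip1 and Kitl each did not pass in 6 of 21 alternatives, all with an array or pool left out.

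Among targets that did not pass, Epha2, Sesn1 and Zmat3 differed most. Epha2, an ephrin receptor, had 265, 302 and 362 on GFP-positive and 6.83, 48.4 and 146 on GFP-negative arrays, with a log2 fold change of 2.05 ± 0.48 (adjusted p in limma 0.0508, and 0.00777 with the pool as a block). Sestrin 1, from Sesn1, had 1.08 ± 0.33 (adjusted p in limma 0.107, and 0.0107 with the block). Further Sesn1 probe sets had 0.28 ± 0.28 and 0.23 ± 0.18. Zmat3, an RNA-binding p53 target, had 1.02 ± 0.24 (adjusted p in limma 0.0508, and 0.0162 with the block).

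**Figure D3:**
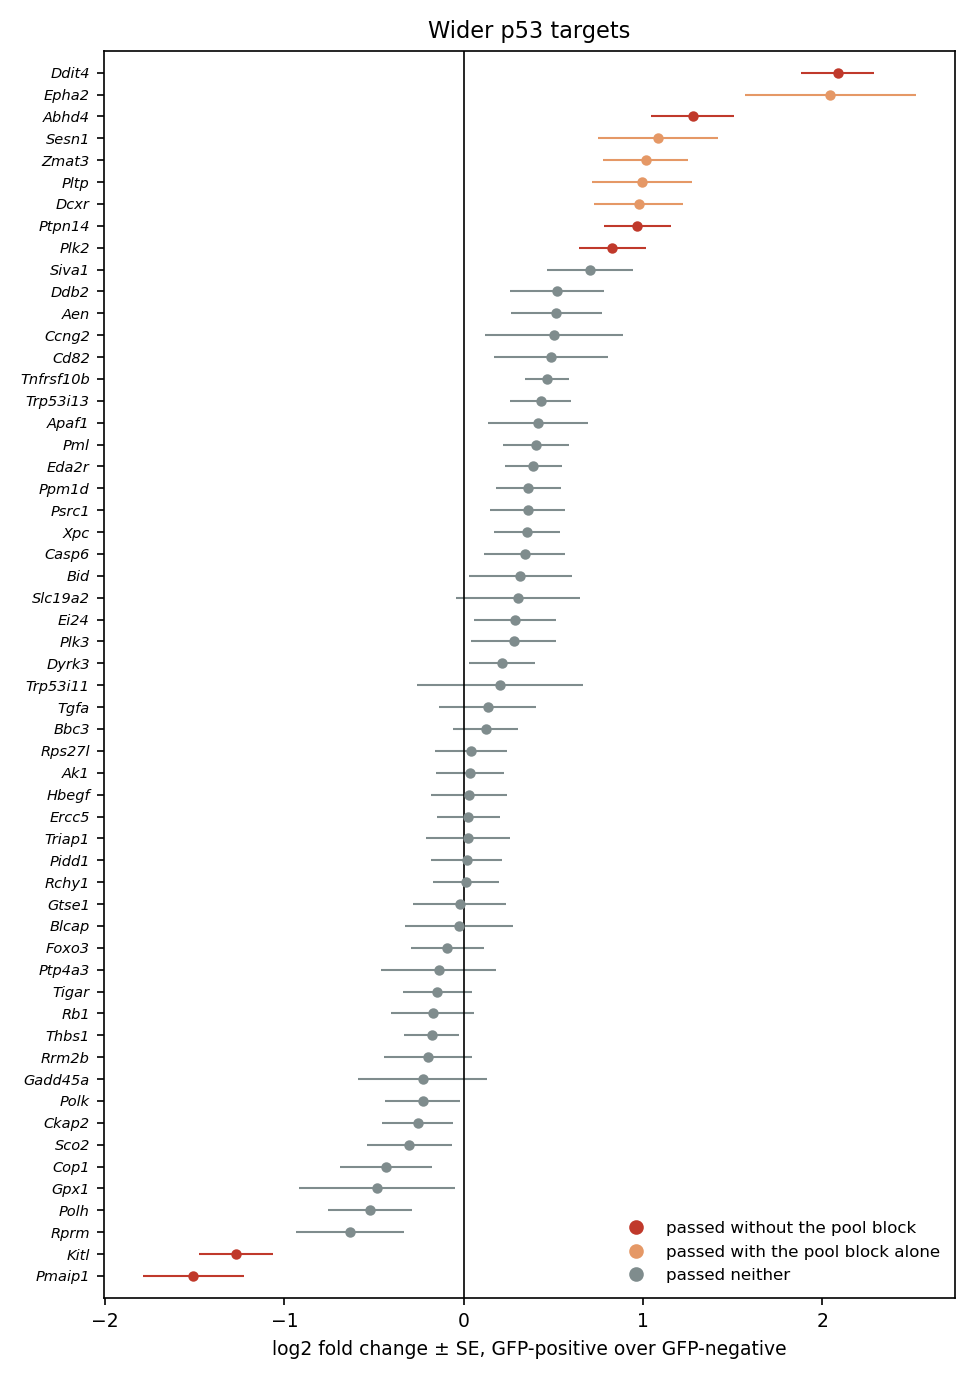
Log2 fold change ± SE (n = 3 arrays per group) of the 56 kept genes of the wider p53 target list, ordered by value; red points passed without the pool block, orange points with it alone, grey points neither. Ddit4 (2.09) and Epha2 (2.05) lie at the top and Pmaip1 (-1.51) and Kitl (-1.27) at the bottom, with most genes within 0.5 of 0.

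Regulators of p53 were tested in the same fit. Among the 27 that were kept, limma gave 0 that rose and 2 that fell, or 4 that fell with the pool as a block. These stand beside 1.71% and, with the block, 5.99% of all genes lower. Before adjustment, 2 had a higher and 5 a lower level at p under 0.05, beside 12.7% and 10% of all genes. The list median was -0.08. Trp63, a p53 relative of surface epithelium, had 18.9, 10.3 and 16.3 on GFP-positive and 76.1, 75.2 and 41.2 on GFP-negative arrays, with -1.01 ± 0.20 (adjusted p in limma 0.0308). Its GFP-positive values lie below the array medians. Trp63 did not pass in 8 of 20 alternatives, among them no filter (adjusted p in limma 0.0581), without GFP-positive array 2 (0.165) and without both arrays of pool 2 (0.589).

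Atm, the kinase that signals DNA breaks to p53, had 470, 138 and 171 on GFP-positive and 595, 1901 and 1816 on GFP-negative arrays. Pools 2 and 3 differed by -3.51 and -3.18 and pool 1 by -0.32. Its fitted value was -2.34 ± 0.53 (SE, adjusted p in limma 0.0471), and -3.35 without both arrays of pool 1. Atm did not pass in 9 of 21 alternatives. Among them were no filter (adjusted p in limma 0.0724), no variance trend (0.0506) and the mean over probe sets (0.0505). The others, fitted without the block, left out pool 2 or 3 or any 1 of the arrays of those pools. The other Atm probe set had -0.54 ± 0.24 and did not pass.

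Genes that p21 lowers through the DREAM repressor complex, chiefly of mitosis and DNA replication, had a median log2 fold change of -0.30 over 34 measured. In limma 0 of the 34 were higher and 0 lower over all genes, with 0 and 8 before adjustment at p under 0.05, beside 12.7% and 10% of all genes. With the pool as a block 6 were lower, beside 5.99% of all genes. E2f1, a driver of S phase, had -1.78 ± 0.59 (adjusted p in limma 0.126, and 0.0125 with the block). Its other probe sets had smaller differences, -0.88 ± 0.30 and -0.38 ± 0.18. The proliferation marker Mki67 had -1.68 ± 0.45 (0.0768, and 0.0152 with the block, both adjusted p in limma). Of the other CDK inhibitors 0 of 5 passed in limma, with 1 at an unadjusted p under 0.05. That was Cdkn1c, which encodes p57, at 0.90 ± 0.25 (adjusted p in limma 0.0777, and 0.0291 with the block). Values for Cdkn2c and Cdkn3 were -0.34 and -0.42.

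**Figure D4:**
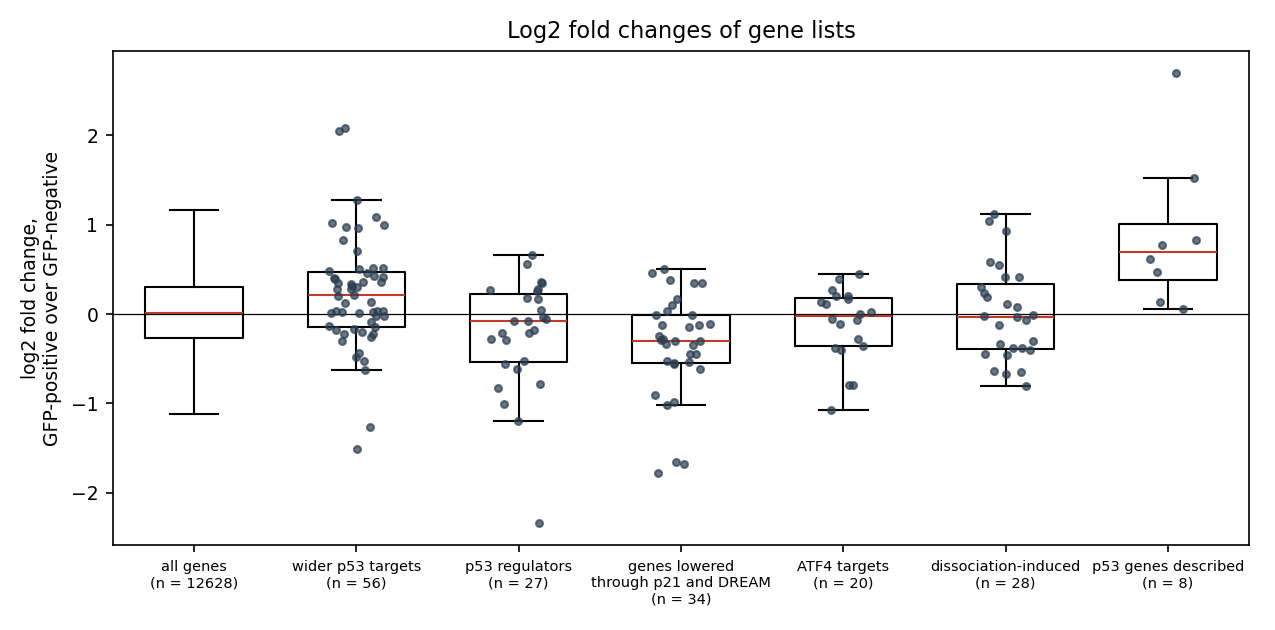
Log2 fold changes, GFP-positive over GFP-negative, by gene list: boxes show quartiles with whiskers to 1.5 interquartile ranges, red lines medians and dots single genes (not drawn for all 12628 genes). The wider p53 targets have a median of 0.21 and the genes lowered through p21 and DREAM one of -0.30; the 8 p53 genes described include the pair chosen for its rise.

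Stress and cell composition were read from further lists. Of 20 measured ATF4 targets, 0 passed in limma (before adjustment 0 higher, 2 lower), and 3 were lower with the pool as a block. Phgdh and Vldlr, with the largest changes, had -1.08 ± 0.76 and -0.79 ± 0.22. Other Phgdh probe sets had 0.16 ± 0.27, 0.08 ± 0.34 and -0.66 ± 0.46, so the sign depended on the probe set. Those of Vldlr lay between -0.82 and -0.50. Of 28 genes that dissociation can induce, 0 passed in limma (before adjustment 5 and 5), with 3 higher and 3 lower with the block. The counts of both lists stand beside 12.7% higher and 10% lower of all genes before adjustment, and 7.76% and 5.99% with the block. Ier2 and Egr1 had 1.12 ± 0.31 and 1.04 ± 0.35. Medians of the ATF4 and dissociation lists were -0.02 and -0.03.

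The gate label was checked on 21 measured node and notochord genes, of which 13 were higher and 0 lower; T and Noto were not analysed here. With the pool as a block 15 were higher. Of the 21, 2 were kept through GFP-positive arrays alone, so these counts are a description. Markers of other cell types differed between the groups. All marker counts stand beside 2.95% higher and 1.71% lower of all genes in limma, or 7.76% and 5.99% with the block. Lower in GFP-positive cells were 9 of 18 endothelial and blood, 9 of 14 lateral mesoderm, 1 of 8 neural plate and 1 of 8 germ cell genes. With the block 16, 11, 3 and 3 were lower, and 2 neural plate genes higher. Higher were 7 of 15 presomitic and somite genes, while gut endoderm had 5 higher and 1 lower of 13 and surface ectoderm 1 higher and 4 lower of 9. With the block 12 presomitic genes were higher, gut endoderm had 8 higher and 1 lower, and surface ectoderm again 1 and 4. Among these lists, 1 presomitic gene was kept through GFP-positive arrays alone, and 1 lateral mesoderm and 2 surface ectoderm genes through GFP-negative arrays alone. The summed intensity of the endothelial and blood list was 1625 to 7458 on GFP-positive and 14540 to 32007 on GFP-negative arrays. That of the presomitic list was 7125 to 8566 against 2901 to 3367. The part of these differences in the values of the p53 genes was not tested.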

How the data were processed

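The authors deposited linear 1-colour intensities, made with GCOS 1.4 per the submitters' processing notes; its settings are not given in the sources used here. With 2% of probe sets trimmed from either end, every array had a mean of 150, so arrays were scaled to 1 level. Detection calls were not used, so dim values may be background, and having 3 arrays a group limits precision. No per-sample column was left unused (0). Probe sets were named from the platform annotation: of 45101, 34945 had 1 gene symbol, 932 several, 9160 were unnamed here and 64 were controls.

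Intensities were taken to log2(value + 32), which understates changes of dim genes. Probe sets reaching the 40th percentile of an array on 3 or more arrays entered the fit; 27824 were kept, 15 of 16 for the p53 genes. All were fitted with limma 3.58.1 in R 4.3.3 (lmFit, eBayes with a variance trend), group as the only term. Each of 12628 genes was represented by its brightest kept probe set; p-values were adjusted by Benjamini-Hochberg over genes, or over probe sets where said, with a threshold of 0.05. Arrays of a pool share embryos per the labels, and their deviations from group means correlated at 0.542, 0.286 and 0.436. The fit with the pool as a block is therefore printed where it changes the call of a tested p53 gene or named wider target. For other named genes and for other probe sets it is not always printed. Its absence there does not mean an unchanged call.

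The genes and lists were chosen with earlier results of these data known. Named genes followed a rule: all p53 genes, wider targets that passed and the 3 with the largest change that did not, regulators that passed (CDK inhibitors: the 3 with the smallest adjusted p), and the 2 with the largest change of the other lists; each likeness took 3 genes. Alternatives were the offset, normalization, filter, variance model, block, threshold, mean over probe sets, and each array or pool left out. Half-sites were searched with Python 3.11.15 in RefSeq windows of GRCm38.p6; the 50 bases after each start were left out.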

Additional observations from a re-analysis of the deposited data

How the results depend on the processing

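The number of the other 6 p53 genes that were higher was 0 under both other offsets (16 and 64), quantile normalization, both filter changes, no variance trend and the mean over probe sets. It was 2 with the pool as a block, where 980 of all 12628 genes were higher. It was 1 (Ccng1) at an adjusted p under 0.1 in limma, where 734 of all genes were. With 1 array or 1 pool left out it ranged from 0 to 3. With the pool as a block and a pool left out, an alternative chosen after seeing the data, it was 4 without pool 1, 1 without pool 2 and 0 without pool 3. Over all genes these last fits gave 2730 of 11763, 426 of 11645 and 572 of 11623 higher, and 2554, 345 and 426 lower. The number of the other 6 p53 genes that were lower was 0 under all of these alternatives. Of the wider targets, the number higher was 3 to 6 under the alternatives named first, 9 with the pool as a block and 9 at an adjusted p under 0.1, and ranged from 0 to 15 with an array or pool left out. With both the block and a pool left out it was 16 without pool 1, 8 without pool 2 and 9 without pool 3. These stand beside the counts over all genes given above for the same fits. Tnfrsf10b, kept through GFP-positive arrays alone, was among the 6 higher under quantile normalization and the 9 at an adjusted p under 0.1. The number of wider targets that were lower was 2 under every alternative with all 6 arrays, and ranged from 0 to 7 with an array or pool left out. With the block and a pool left out it was 9 without pool 1 and 2 without pool 2 or 3.

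Signs turned in 3 cases: Sesn2 at -0.12 without the GFP-negative array of pool 1, and Phlda3 at -0.06 without the GFP-positive array of pool 3 and -0.11 without the GFP-negative array of pool 1. The other p53 genes kept their sign under 21 alternatives each, with log2 fold changes of 1.09 to 1.79 for Cdkn1a, 1.74 to 2.99 for Trp53inp1, 0.37 to 0.91 for Ccng1, 0.15 to 0.85 for Mdm2, 0.22 to 0.67 for Btg2 and 0.61 to 1.10 for Perp. Highest values were 0.40 for Sesn2 and 0.19 for Phlda3. The lowest value for Cdkn1a, Trp53inp1, Ccng1 and Mdm2 was that of the mean over probe sets. That mean averages in their dimmer probe sets, which had smaller differences. Quantile normalization moved the median of all genes from 0.01 to 0.05. The cause of the other shifts was not tested. The GFP-negative values of the second Trp53inp1 probe set lie below the array medians, where background limits what a difference can show.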
